A study of Mus musculus with 16 samples.

Results

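CD8+ T cells from the matrix labelled as accepted kidney allografts at 24 weeks were compared with CD8+ T cells from recipient spleens at 3 weeks after transplantation. A cell entered the comparison when it held at least 1 unique molecular identifier (UMI, the tag of 1 captured mRNA molecule) of Cd8a or Cd8b1, which encode the 2 chains of CD8, and no UMI of Cd4, Cd79a, or Lyz2, which mark CD4+ T cells, B cells, and myeloid cells. The rule kept 4046 of 9924 cells, of 72639 cells in all CD8 matrices. They were 1722 of 4033 graft cells from 3 libraries (506, 597, and 619 cells) and 2324 of 5891 spleen cells from 5 libraries (487, 491, 542, 352, and 452 cells). Each library tag was taken as 1 mouse, as the numbers of tags match the numbers of mice given for the study. The recipients of both groups were wild-type C57BL/6J (B6) mice that had received a kidney of the DBA/2J strain, an inbred strain with other histocompatibility genes, and they were given no immunosuppressive drug. Viable CD45+ leukocytes were sorted from both tissues, and the study's authors then called the CD8+ T cells. Kidneys were digested with collagenase, whereas spleens were ground through a strainer and their red cells lysed, so the tissue, the time after transplantation, and the preparation all differ between the groups and cannot be told apart.

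Naive CD8+ T cells recirculate through lymphoid organs and are kept quiescent by factors such as Lef1, Tcf7, and Klf2. Memory cells carry the interleukin-2 and interleukin-15 receptor chain Il2rb and the chemokine Ccl5, cytotoxic effector cells make granzymes, perforin, and interferon-γ, and cells that stay in a tissue carry integrins and receptors that hold them there. Chronic antigen brings inhibitory checkpoint receptors such as PD-1 (Pdcd1) and the factor Tox. All nucleated cells show peptides on MHC class I molecules, whose loading needs immunoproteasome subunits and the TAP transporter.

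The kept cells carried the markers that the rule did not use. Cd3d, named here as a check, encodes a chain of the T cell receptor complex and was at 995, 1041, and 927 CPM (UMIs per 1000000 UMIs of the library's kept cells) in the graft libraries and 773, 875, 791, 879.7, and 897 CPM in the spleen libraries. The kept UMIs per library were 2477816 to 3846717 in the graft and 1655201 to 2598832 in the spleen, with a median per kept cell of 4443 to 6069 and 3500.5 to 5260 UMIs. The rule kept 42.7% ± 2.23 (SD, n = 3) of the graft matrix and 39.6% ± 3.77 (SD, n = 5) of the spleen matrix (exact permutation p = 0.286), and 30.8% and 31.2% when cells were thinned to 1000 UMIs before the rule. A Cd4 UMI was present in 20.3% to 24.3% of graft matrix cells and 19.1% to 24.8% of spleen matrix cells, so these matrices also held cells with CD4 transcripts. Mitochondrial genes took 5.18% to 5.36% of graft UMIs and 3.72% to 4.78% of spleen UMIs, ribosomal protein genes 43.1% to 44.7% and 40.7% to 42.7%, and the nuclear RNA Malat1 15241 to 16445 and 18643 to 22475 CPM (each exact permutation p = 0.0357, the smallest that 3 against 5 libraries can give). No 2 libraries shared more than 2 cell barcodes.

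Apart from Ass1, transcripts of kidney tubule cells, a check of the tissue label, were nearly absent from the 24-week graft libraries. Of 20 kidney parenchyma genes, Ass1 (argininosuccinate synthase) held nearly all UMIs, at 33.5, 27.99, and 30.2 CPM in the 24-week graft libraries and 19.2, 25.05, 21.7, 24.2, and 22.4 CPM in the 3-week spleen libraries. The other 19 genes summed to 5 of 9111051 UMIs in the 24-week graft libraries (0.404 to 0.718 CPM) and to 5 of 10051887 UMIs in the 3-week spleen libraries (0 to 1.55 CPM), where 9 of the 19 are in the matrix. In the 3-week graft matrix they summed to 507 of 44035169 UMIs (9.05 to 14.96 CPM), and in the matrix labelled as 24-week recipient spleen to 78 of 11382310 UMIs (5.51 to 7.70 CPM). Gpx3 (a glutathione peroxidase made in proximal tubules) and Miox (a tubular oxygenase) had no UMI under the 24-week graft label and 18 and 8 UMIs under the 24-week spleen label. Between the 24-week labels, 13 of the 19 genes were higher under the spleen label, 1 was higher under the graft label, and 5 were equal. Ass1, the only gene of the list with enough counts to test, went the other way. It was called higher under the graft label than under the 24-week spleen label (log2 fold change 1.68, and 1.95 with TMM factors, a scaling by the bulk of genes). It was also called higher than in 3-week spleen (0.45). The sum of the 19 genes thus ran opposite to the tissue labels at 24 weeks, whereas Ass1 ran with them. Each of the 3 graft-label libraries had 100% of its cell barcodes in the authors' integrated CD45+ graft matrix. Each of the 3 spleen-label libraries had 100% in the integrated CD45+ spleen matrix. The CD8+ T cells were called from those CD45+ cells, so this match was set in advance. An exchange before labelling would give it too, so it cannot test the labels. Whether the tissues were exchanged was not tested. The 24-week libraries are therefore named by their labels throughout ("24-week graft libraries" are those labelled so), and the same comparison was made with the 24-week spleen label in its place.

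Transcripts of other cell types were lower or alike in the 24-week graft libraries. The 14 B cell genes summed to 348 to 495 CPM against 478 to 876 CPM in the 3-week spleen, with 0 higher and 9 lower of 13 tested (6 lower with TMM factors, a scaling by the bulk of genes), and Cd79a at 0 by the rule. Of all genes 30.2% were called lower in this comparison, and 15% with TMM factors. The 12 myeloid genes summed to 72.01 to 81.1 CPM against 73.9 to 150.4 CPM, with 0 higher and 2 lower of 5 tested. The 7 NK and γδ T cell genes summed to 15.7 to 31.2 CPM and 29.6 to 40.5 CPM, with none of 2 tested called, and the 5 CD4 T cell genes to 4.84 to 6.24 CPM and 5.77 to 13.8 CPM, with only Tnfrsf4 tested, which was lower. The 5 erythroid genes summed to 0 to 0.260 CPM and 1.15 to 4.62 CPM, the 4 platelet genes to 0 to 0.520 CPM and 0 to 0.945 CPM, and the 8 endothelial and stromal genes to 48.4 to 57.3 CPM and 67.6 to 76.7 CPM. The part of these transcripts in the results below was not tested.

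**Figure D1:**
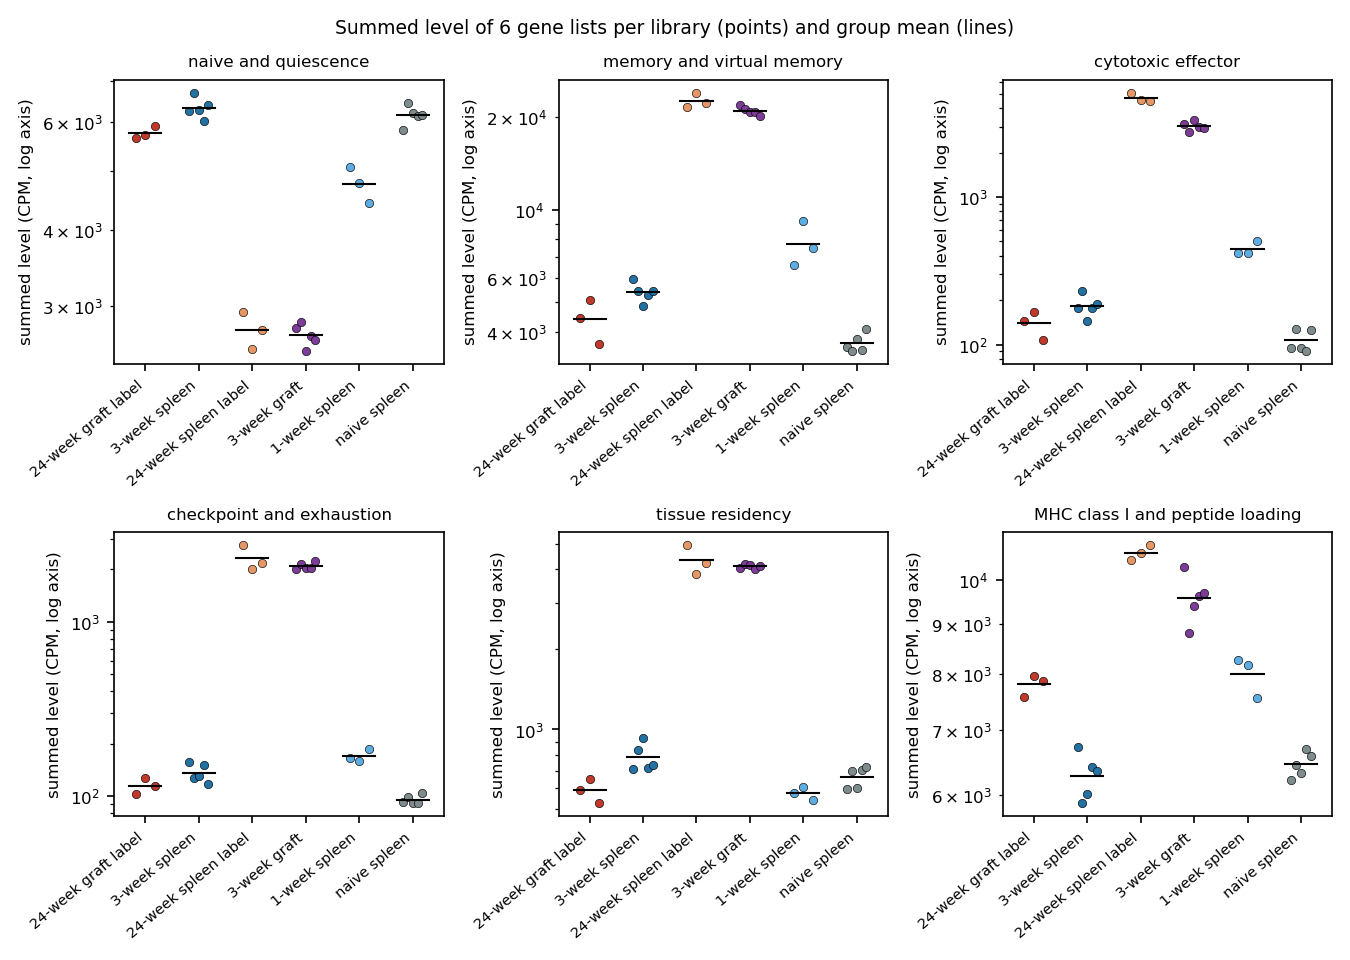
Summed level (CPM, log axis) of 6 gene lists in each library, with points for libraries and lines for group means over 6 matrices. The 24-week graft libraries lie beside the 3-week spleen libraries in the memory list (3659 to 5062 CPM against 4834 to 5956 CPM), and the 24-week spleen label lies at 21580 to 23996 CPM.

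Most differences between the 24-week graft label and the 3-week spleen were small. Of 17327 shared genes, 8866 passed the filter on low counts. The edgeR quasi-likelihood test called 3264 (36.8%) at an adjusted p under 0.05, with 590 (6.65%) higher and 2674 (30.2%) lower in the graft libraries. A change of more than 1 on the log2 scale was found for 44 of the genes called higher and 295 of those called lower, which together are 3.82% of the genes tested. The median log2 fold change of all genes tested was -0.21 with plain library totals, so changes are to be read against that shift. With TMM factors, which set the bulk of genes to equal levels, the median was -0.01 and the split became 1442 higher (16.3%) and 1333 lower (15%). The counts of each gene list are to be read against these shares. With plain totals the libraries of the 2 groups did not overlap for 2967 of the 8866 genes tested (33.5%). A lack of overlap named below is to be read against that share. No gene called under both scalings changed direction.

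**Figure D2:**
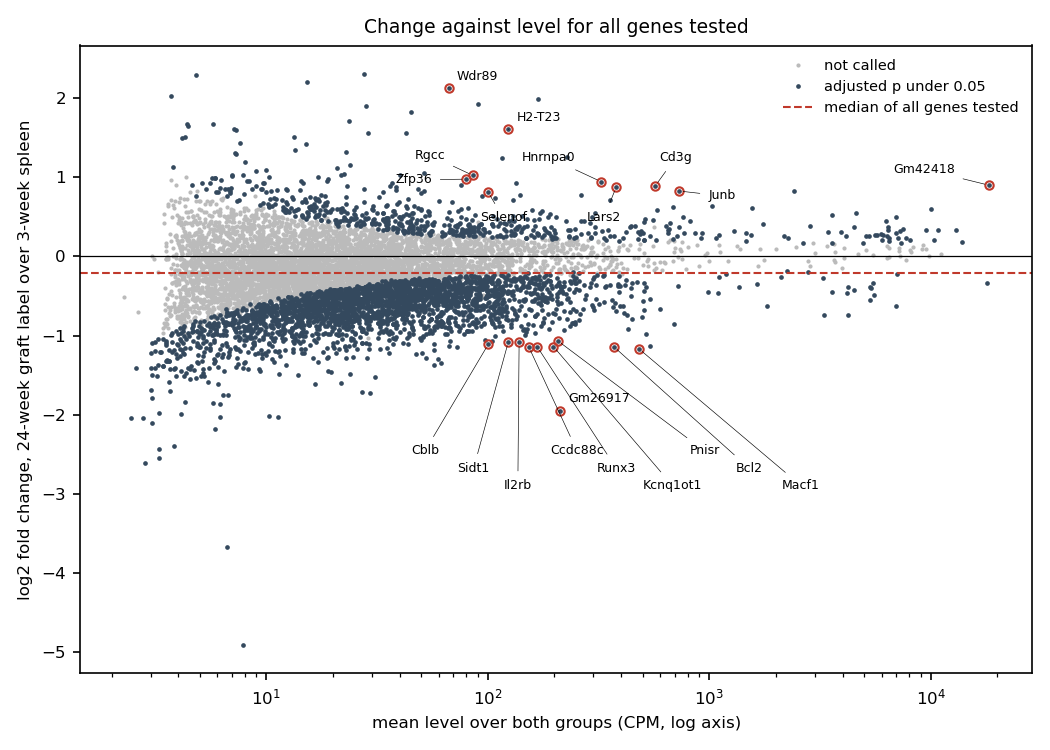
Log2 fold change of the 24-week graft label over 3-week spleen against the mean level (CPM, log axis) for the 8866 genes tested. Dark points have an adjusted p under 0.05, red circles mark the 10 largest rises and 10 largest falls named in the text, and the dashed line is the median of all genes at -0.21.

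The median change in the graft libraries was lower for genes with longer introns. The genes with an intron length (99.3% of those tested) were split into 4 groups of equal size by their summed introns. The median log2 fold change was -0.01, -0.15, -0.25, and -0.42 from the group of shortest to that of longest introns, in which 15.9% and 50.4% of genes were called lower and 13.9% and 2.18% called higher. TMM factors moved all 4 medians up (0.19, 0.05, -0.04, and -0.22) without changing their order. For the 24-week spleen label against the same 3-week libraries the medians were 0.09, 0.03, 0.00, and -0.10. Malat1, which stays in the nucleus, was lower too, and the part of nuclear RNA or RNA quality in these calls was not tested. With the median shift taken out in finer groups of intron length, 2128 genes were called. This also took out the shift of all genes, whose median became -0.01.

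**Figure D3:**
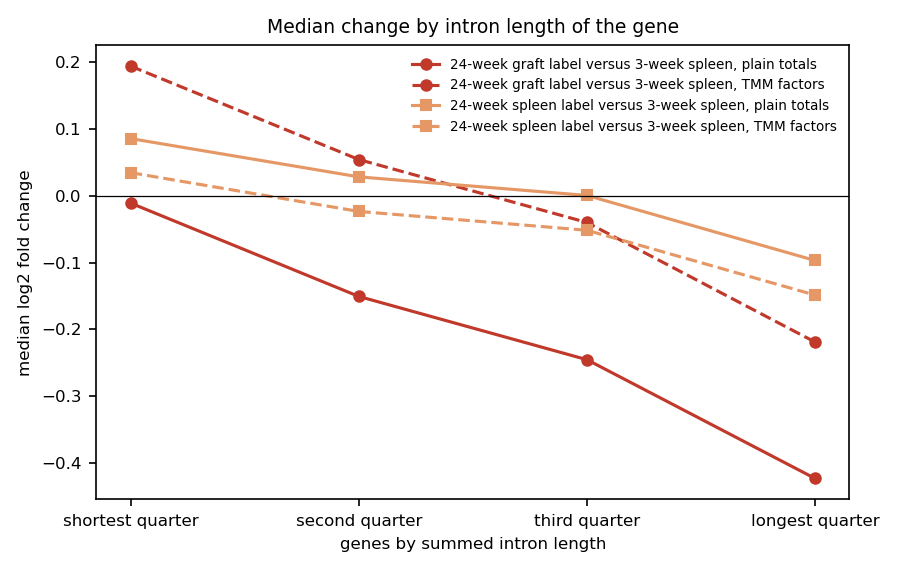
Median log2 fold change of genes in 4 equal groups of summed intron length, for each 24-week label against 3-week spleen, with plain totals (solid) and TMM factors (dashed). Under the graft label the median falls from -0.01 to -0.42 with plain totals, and from 0.19 to -0.22 with TMM factors.

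The largest rises by the naming rule were Wdr89, H2-T23, Rgcc, Zfp36, Hnrnpa0, Gm42418, Cd3g, Lars2, Junb, and Selenof, and all held with TMM factors. That rule takes only genes whose groups do not overlap. Lack of overlap in these genes and in the largest falls was therefore set in advance. Wdr89, a WD-repeat protein gene (GRCm38 chr12:75630596-75669537), was at 112, 104, and 111 CPM in the 24-week graft libraries and 28.9, 27.9, 27.3, 21.7, and 16.1 CPM in the 3-week spleen libraries. No library of one group reached the other, and the log2 fold change was 2.13 ± 0.12 (SE; edgeR adjusted p = 1.6e-13). Rgcc, a regulator of the cell cycle, was at 130.4, 119.9, and 96.7 CPM in the 24-week graft libraries and 77.3, 43.9, 54.7, 57.4, and 45.3 CPM in the 3-week spleen libraries (1.02 ± 0.13, adjusted p = 5.1e-07). The 24-week spleen label had 49.6 to 60.3 CPM of Rgcc, within the range of the 3-week spleen. Zfp36 encodes tristetraprolin, which speeds the decay of cytokine mRNAs. It was at 119.9, 115, and 83.97 CPM in the 24-week graft libraries and 58.9, 66.6, 46.4, 45.9, and 47.1 CPM in the 3-week spleen libraries (0.98 ± 0.12, adjusted p = 5.1e-07). Hnrnpa0, an RNA-binding protein, had a mean of 429 ± 12.1 CPM (SD, n = 3) against 221 ± 53.7 CPM (SD, n = 5), and Selenof, a selenoprotein of the endoplasmic reticulum, 128 ± 7.43 CPM against 72.6 ± 9.54 CPM.

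Some of the largest changes had like levels in other matrices. Gm42418 (chr17:39846958-39848788, plus strand) and Gm26917 (chr17:39843013-39846341, plus strand) are neighbouring noncoding genes that do not overlap. Gm42418 was at 29129, 20602, and 21733 CPM in the 24-week graft libraries and 11167, 11742, 12835, 13215, and 14869 CPM in the 3-week spleen libraries (0.90 ± 0.09, adjusted p = 4.5e-09). Gm26917 went the other way, at 86.8, 81.5, and 92.03 CPM in the 24-week graft libraries and 349.8, 315, 326, 322, and 364 CPM in the 3-week spleen libraries (-1.95 ± 0.09, adjusted p = 1.2e-15), and groups did not overlap for either gene. Gm26917 was also at 67.2 to 86.7 CPM under the 24-week spleen label and 101 to 124 CPM in 1-week spleen, but at 333 to 380.0 CPM in naive spleen. Lars2 (mitochondrial leucyl-tRNA synthetase) rose by 0.87, with 493 to 715 CPM under the 24-week spleen label, 602 to 691 CPM in 1-week spleen, and 93.5 to 206 CPM in naive spleen. The cytoskeletal linker Macf1 fell by 1.17 on the log2 scale, from 603 to 785 CPM to 264 to 313 CPM, and was at 226 to 274 CPM and 269 to 320.3 CPM in the 24-week and 1-week spleen matrices. The part of library preparation or sequencing run in these values was not tested, as the labels give neither.

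Runx3, Bcl2, and Il2rb were among the largest falls. Runx3, the factor that fixes the CD8 lineage and also acts in resident memory, was at 89.2, 103, and 119 CPM in the 24-week graft libraries and 237, 233, 243, 217, and 225 CPM in the 3-week spleen libraries (-1.14 ± 0.09, adjusted p = 3.4e-10). Bcl2, which protects T cells from apoptosis, was at 258, 235, and 203 CPM in the 24-week graft libraries and 576, 488, 496, 475, and 511 CPM in the 3-week spleen libraries (-1.14 ± 0.09, adjusted p = 2.1e-10). Il2rb (CD122) was at 75.9, 86.8, and 102 CPM in the 24-week graft libraries and 208, 173, 193, 161, and 208 CPM in the 3-week spleen libraries (-1.09 ± 0.10, adjusted p = 4.5e-09). In all 3 genes the highest graft library was below the lowest spleen library, which the naming rule requires. Cblb, a ubiquitin ligase that restrains T cell activation, fell by 1.11, the transmembrane protein gene Sidt1 by 1.08, the splicing-related Pnisr by 1.07, the signalling adaptor Ccdc88c by 1.14, and the imprinted noncoding RNA Kcnq1ot1 by 1.14 on the log2 scale. These falls also held with TMM factors.

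Naive genes were well expressed in both groups, and their direction depended on the scaling. Of the 20 genes of the naive and quiescence list, 4 were higher and 13 lower with plain totals, beside 6.65% and 30.2% of all genes. With TMM factors 5 were higher and 5 lower, beside 16.3% and 15%. The median log2 fold change was -0.37 with plain totals and -0.17 with TMM factors, against -0.21 and -0.01 for all genes. Lef1, a factor of the naive state, was at 504, 510.0, and 532 CPM in the 24-week graft libraries and 409, 447, 446, 466, and 446 CPM in the 3-week spleen libraries (0.22 ± 0.07, adjusted p = 0.021). Klf2, which keeps T cells quiescent and recirculating, was at 916, 912, and 858 CPM in the 24-week graft libraries and 822, 603, 506, 616, and 620.3 CPM in the 3-week spleen libraries (0.50 ± 0.10, adjusted p = 2.0e-04). For both genes every graft library was above every spleen library, though the Lef1 call was lost without graft replicate 3 (0.20, adjusted p = 0.095). Tcf7, the partner of Lef1, was at 335, 364, and 310.1 CPM in the 24-week graft libraries and 421, 448, 447, 419.9, and 438 CPM in the 3-week spleen libraries, without overlap (-0.37 ± 0.08, adjusted p = 4.7e-04), but was not called with TMM factors (-0.17, adjusted p = 0.099). The lymph node homing receptor Ccr7 was at 170.3, 201, and 186 CPM in the 24-week graft libraries and 237, 242, 250.1, 195, and 232 CPM in the 3-week spleen libraries, with overlap, and its call (-0.32, adjusted p = 0.0058) was also lost with TMM factors (-0.11, adjusted p = 0.33). The interleukin-7 receptor Il7r, at 371, 410.2, and 434 CPM in the 24-week graft libraries and 614, 732, 584, 411, and 649.6 CPM in the 3-week spleen libraries, overlapped too (-0.56 ± 0.11, adjusted p = 2.4e-04). Txk, a Tec-family kinase, fell by 0.64, the forkhead factor Foxo1 by 0.58, and Klf3 by 0.52 on the log2 scale, and these held with TMM factors. Btg1, an antiproliferative gene, was at 1195 ± 121 CPM and 1239 ± 156 CPM (adjusted p = 0.67).

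Nearly all cells of both groups carried naive transcripts. After each cell was thinned to 1000 UMIs, cells with at least 2 naive genes made up 94.4% ± 1.47 (SD, n = 3) in the 24-week graft libraries and 96.8% ± 0.637 (SD, n = 5) in the 3-week spleen libraries, a difference of -2.35 percentage points, exact permutation p = 0.0357. The same share was 82.3% in 25236 B cells of naive spleen (median 2748 UMIs), so this list is not particular to T cells. With at least 1 gene the groups overlapped (-0.543 percentage points, exact permutation p = 0.143). Without thinning the shares were 99.7% and 99.9% (-0.222 percentage points, exact permutation p = 0.214).

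Most memory genes were lower in the 24-week graft libraries with plain totals, and fewer with TMM factors. Of the 20 genes of the memory and virtual memory list, 0 were higher and 14 lower (median -0.50 against -0.21 for all genes). With TMM factors 1 was higher and 8 lower. The shares of all genes were 6.65% higher and 30.2% lower, and 16.3% and 15% with TMM factors. Cd44, the adhesion receptor of antigen-experienced cells, was at 13.7, 17.9, and 11.96 CPM in the 24-week graft libraries and 38.5, 27.9, 40.2, 34.4, and 32.1 CPM in the 3-week spleen libraries (-1.27 ± 0.17, adjusted p = 1.0e-06). Gzmm, a granzyme of memory-phenotype cells, was at 13.3, 10.8, and 7.54 CPM in the 24-week graft libraries and 21.2, 28.4, 27.3, 32.6, and 33.3 CPM in the 3-week spleen libraries (-1.46 ± 0.20, adjusted p = 1.6e-06). Il18rap, an interleukin-18 receptor chain, was at 10.9, 11.8, and 9.88 CPM in the 24-week graft libraries and 24.2, 22.2, 21.7, 27.2, and 30.99 CPM in the 3-week spleen libraries (-1.21 ± 0.18, adjusted p = 6.2e-06). The groups did not overlap for these 3 genes, as for 33.5% of all genes tested. The NK receptor gene Klrc2, whose reads may be split with near-identical Klrc genes, was at 8.48, 14.7, and 9.62 CPM in the 24-week graft libraries and 41.6, 27.9, 28.4, 21.7, and 43.6 CPM in the 3-week spleen libraries (-1.59 ± 0.21, adjusted p = 1.2e-06), again without overlap. Ccl5 was at 1582, 1863, and 905 CPM in the 24-week graft libraries and 2391, 1897, 1521, 1678, and 1754 CPM in the 3-week spleen libraries, with overlap, and its fall was close to the threshold (-0.35 ± 0.14, adjusted p = 0.047) and not called with TMM factors (-0.15, adjusted p = 0.44). It was also lost on leaving out any one of graft replicate 3 (-0.10, adjusted p = 0.52), spleen replicate 1 (-0.24, adjusted p = 0.14), spleen replicate 2 (-0.34, adjusted p = 0.065), spleen replicate 5 (-0.37, adjusted p = 0.064). Id2, a factor of effector and memory cells, was at 119 ± 14.3 CPM and 127 ± 12.7 CPM (adjusted p = 0.48), and the surface protein Cd7 at 59.6 ± 7.10 CPM and 68.3 ± 10.8 CPM (adjusted p = 0.21).

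The share of cells with memory transcripts was lower too. With thinning, cells with at least 2 memory genes made up 54.3, 61.5, and 50.6% of the graft libraries and 69.8, 65.99, 63.3, 65.3, and 68.1% of the spleen libraries, without overlap. The means were 55.5% ± 5.54 (SD, n = 3) in the 24-week graft libraries and 66.5% ± 2.53 (SD, n = 5) in the 3-week spleen libraries, a difference of -11.03 percentage points, exact permutation p = 0.0357, with 1.11% in B cells. Without thinning the shares were 95.2% and 94.8% (0.466 percentage points, exact permutation p = 0.857). A cell counted here is not thereby a memory cell, as 94.4% and 96.8% of the thinned cells held at least 2 naive genes. The memory list summed to 3462 to 4075 CPM in naive spleen. It summed to 3659 to 5062 CPM in the 24-week graft libraries and 4834 to 5956 CPM in the 3-week spleen libraries. Cells with a Ccl5 UMI after thinning made up 14.4, 16.8, and 10.5% of the graft libraries and 26.7, 21.4, 21.3, 21.6, and 23.9% of the spleen libraries. They made up 7.92% to 14.1% of naive spleen and 92.1% to 94.3% of the 24-week spleen label, with 0.967% in B cells. A sum over cells does not tell fewer expressing cells from less RNA per cell.

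Cytotoxic transcripts were low in both groups. Of 15 cytotoxic genes 9 were tested, with 1 higher and 4 lower (median -0.82), and with TMM factors 1 higher and 2 lower. With so few genes these counts are not far from the 6.65% higher and 30.2% lower of all genes, or the 16.3% and 15% with TMM factors. Gzmb (granzyme B) was at 6.46, 2.51, and 1.56 CPM in the 24-week graft libraries and 9.23, 10.4, 2.06, 4.83, and 3.44 CPM in the 3-week spleen libraries (-0.95 ± 0.44, adjusted p = 0.084). Ifng (interferon-γ) was at 3.63, 6.82, and 2.86 CPM in the 24-week graft libraries and 6.93, 8.03, 10.8, 6.65, and 4.59 CPM in the 3-week spleen libraries (-0.78 ± 0.32, adjusted p = 0.055). Neither passed the test, and the groups overlapped for both. Gzmb passed it on leaving out either of graft replicate 1 (-1.65, adjusted p = 0.014), spleen replicate 3 (-1.17, adjusted p = 0.031), and Ifng on leaving out either of graft replicate 2 (-1.22, adjusted p = 0.014), spleen replicate 5 (-0.90, adjusted p = 0.033). Prf1 (perforin) fell by 0.45 on the log2 scale (adjusted p = 0.013), was at 41.8 ± 12.9 CPM and 58.7 ± 7.90 CPM, and was not called with TMM factors (-0.25, adjusted p = 0.19) or without graft replicate 1 (-0.29, adjusted p = 0.12), graft replicate 2 (-0.39, adjusted p = 0.069). The fractalkine receptor Cx3cr1 was at 1.61, 2.15, and 0.260 CPM in the 24-week graft libraries and 11.5, 4.73, 2.58, 3.02, and 9.75 CPM in the 3-week spleen libraries (-2.39 ± 0.53, adjusted p = 6.9e-04), and its partner in effector cells, the repressor Zeb2, fell by 1.28. The death ligand Fasl was at 5.16 ± 2.997 CPM and 8.86 ± 2.42 CPM, with a call (-0.82, adjusted p = 0.036) lost with TMM factors and without any one of graft replicate 1 (-0.63, adjusted p = 0.15), graft replicate 3 (-0.57, adjusted p = 0.22), spleen replicate 1 (-0.77, adjusted p = 0.067), spleen replicate 2 (-0.70, adjusted p = 0.095), spleen replicate 5 (-0.80, adjusted p = 0.064). Xcl1, a chemokine for cross-presenting dendritic cells, was the gene that rose, at 33.5, 49.5, and 16.6 CPM in the 24-week graft libraries and 13.5, 10.9, 13.9, 19.9, and 15.5 CPM in the 3-week spleen libraries, with overlap (1.15 ± 0.24, adjusted p = 4.2e-04; 0.73, adjusted p = 0.021 without graft replicate 2). The thinned share of cells with at least 2 cytotoxic genes was 1.33% ± 0.300 (SD, n = 3) in the 24-week graft libraries and 1.85% ± 0.583 (SD, n = 5) in the 3-week spleen libraries (-0.523 percentage points, exact permutation p = 0.214), against 0.523% in B cells.

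PD-1 and Lag3 transcripts stayed near the floor under the 24-week graft label, and the 13 checkpoint genes together were at 103 to 126 CPM there and at 117 to 156 CPM in 3-week spleen. Of 13 checkpoint genes 6 had enough counts to test, with 0 higher and 1 lower, beside 6.65% and 30.2% of all genes, and with TMM factors 0 and 0, beside 16.3% and 15%. Pdcd1 (PD-1) was at 0.807, 1.08, and 2.34 CPM in the 24-week graft libraries and 1.92, 0.473, 1.55, 0, and 2.30 CPM in the 3-week spleen libraries, and Lag3 at 0, 3.23, and 1.56 CPM in the 24-week graft libraries and 0.770, 0.945, 1.03, 0.604, and 1.72 CPM in the 3-week spleen libraries. Both were below the filter on low counts. Without that filter the changes were 0.23 ± 0.63 (edgeR adjusted p = 0.83) for Pdcd1 and 0.69 ± 0.67 (adjusted p = 0.51) for Lag3. Tox, the factor of exhausted cells, was at 38.7, 47.01, and 46.5 CPM in the 24-week graft libraries and 79.7, 48.7, 62.4, 66.5, and 56.8 CPM in the 3-week spleen libraries, without overlap (-0.51 ± 0.13, adjusted p = 0.0025), but was not called with TMM factors (-0.30, adjusted p = 0.059). The thinned share with at least 2 checkpoint genes was 0.682% ± 0.306 (SD, n = 3) in the 24-week graft libraries and 0.819% ± 0.328 (SD, n = 5) in the 3-week spleen libraries (-0.136 percentage points, exact permutation p = 0.643), with 0.0476% in B cells.

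Genes of tissue residency were not higher under the graft label. Of 12 genes 8 were tested, with 0 higher and 3 lower under plain totals and under TMM factors, beside 30.2% and 15% lower of all genes. The residency chemokine receptor Cxcr6 was at 42.8, 40.2, and 29.1 CPM in the 24-week graft libraries and 43.1, 32.6, 39.7, 30.2, and 32.1 CPM in the 3-week spleen libraries (0.03 ± 0.14, adjusted p = 0.89). Itgae (CD103) was at 25.8, 20.1, and 27.6 CPM in the 24-week graft libraries and 33.9, 27.9, 33.5, 32.6, and 25.8 CPM in the 3-week spleen libraries (-0.32 ± 0.15, adjusted p = 0.086), and the groups overlapped for both genes. Itga1 (CD49a) was at 3.50 ± 2.66 CPM and 3.43 ± 0.928 CPM and was not tested. Besides Runx3, the genes lower were Rgs2, a regulator of G protein signalling (-0.70, adjusted p = 3.9e-05), and the aryl hydrocarbon receptor Ahr (-1.47, adjusted p = 0.0015). The thinned share with at least 2 residency genes was 8.61% ± 1.39 (SD, n = 3) in the 24-week graft libraries and 11.6% ± 1.48 (SD, n = 5) in the 3-week spleen libraries (-2.996 percentage points, exact permutation p = 0.0714), with 6.47% in B cells. With at least 1 gene the groups did not overlap (-11.2 percentage points, exact permutation p = 0.0357), and B cells were at 43.7%. The difference did not pass the test with at least 3 genes, at 500 UMIs, or without thinning. Of 9 regulatory-like genes 6 were tested, with 0 higher and 4 lower, and 1 higher and 3 lower with TMM factors (30.2% and 15% lower of all genes). Fgl2, a secreted suppressive protein, was at 1.91 ± 1.14 CPM and 2.66 ± 1.95 CPM and was not tested. Ikzf2 (Helios) was at 36.7 ± 5.67 CPM and 58.7 ± 5.89 CPM (-0.69 ± 0.12, adjusted p = 6.0e-05). The costimulatory receptors Icos (-0.62, adjusted p = 0.0041) and Tnfrsf4 (-1.32, adjusted p = 0.011) were lower. The Icos call was lost with TMM factors (-0.41, adjusted p = 0.057), and that of Tnfrsf4 without graft replicate 1 (-1.13, adjusted p = 0.057).

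**Figure D4:**
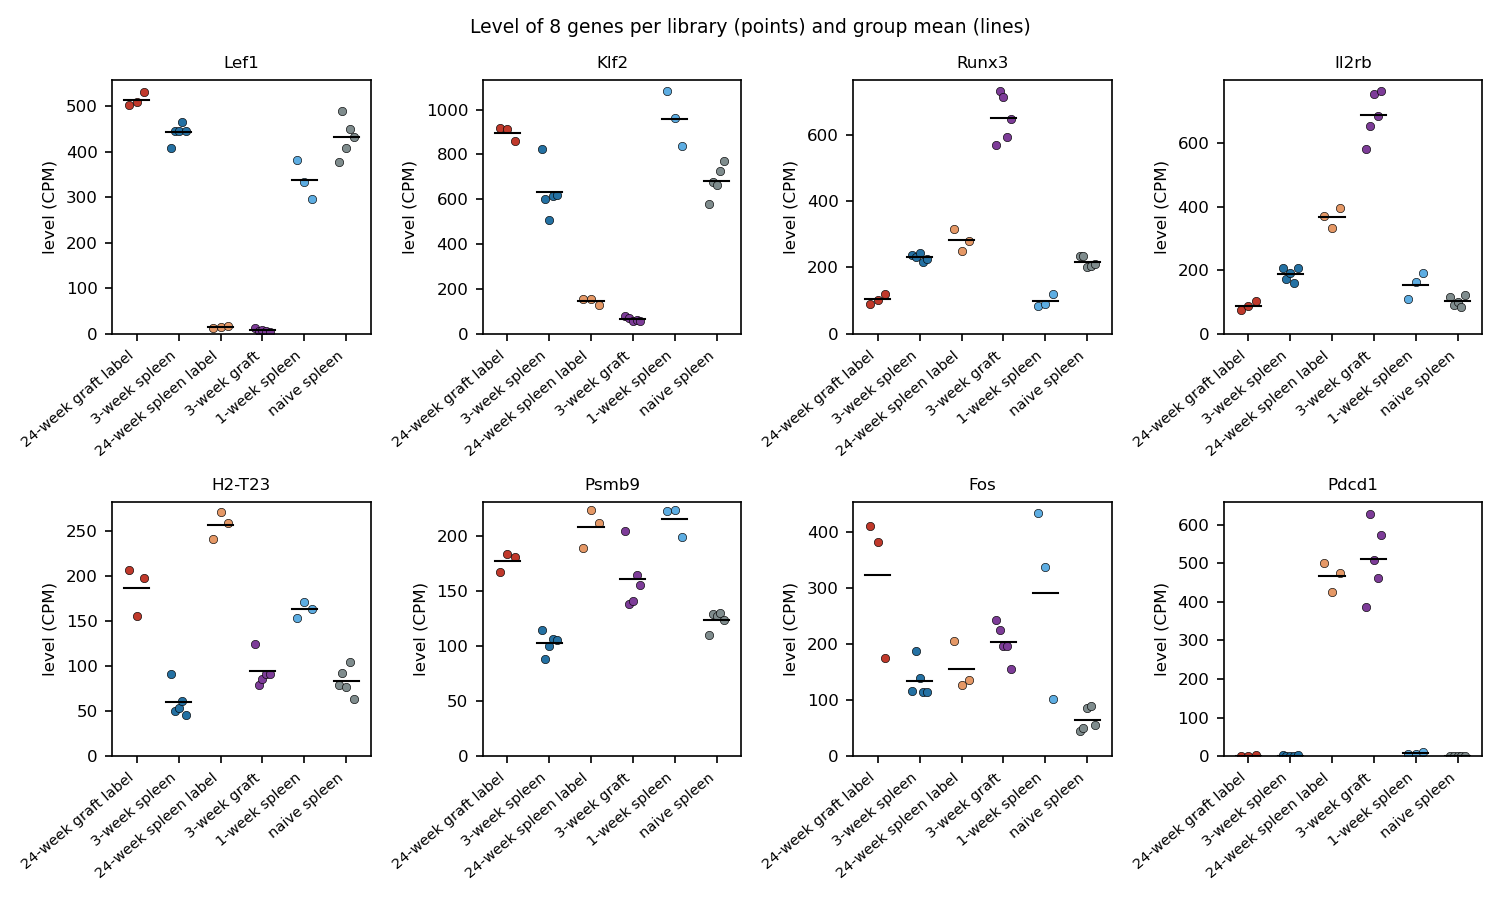
Level (CPM) of 8 genes in each library of 6 matrices, with points for libraries and lines for group means. Lef1 is at 504 to 532 CPM under the 24-week graft label, 409 to 466 CPM in 3-week spleen, and 11.9 to 17.8 CPM under the 24-week spleen label, whereas Pdcd1 is at 0.807 to 2.34 CPM, 0 to 2.30 CPM, and 425 to 501 CPM.

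More genes of MHC class I and peptide loading were higher than lower under the graft label. Of 15 genes 6 were higher and 3 lower (median 0.11 against -0.21 for all genes), beside 6.65% and 30.2% of all genes. With TMM factors 10 were higher and 1 lower, beside 16.3% and 15%. With the intron length shift taken out, 6 were higher and 2 lower. The list summed to 7561 to 7958 CPM under the graft label and 5882 to 6727 CPM in 3-week spleen. In 1-week spleen it summed to 7545 to 8253 CPM, so such a level was not particular to the graft label. H2-T23 encodes Qa-1, a nonclassical class I molecule that engages the CD94 and NKG2A receptor. It was at 207, 156, and 198 CPM in the 24-week graft libraries and 91.2, 50.1, 53.6, 61.6, and 45.3 CPM in the 3-week spleen libraries (1.61 ± 0.13, adjusted p = 5.1e-10), with groups apart. Reads of H-2 genes may be split among near-identical copies, and donor and recipient strains differ in these genes, so H-2 values are uncertain. Psmb9, an immunoproteasome subunit, was at 167, 183, and 181 CPM in the 24-week graft libraries and 114, 88.4, 100.1, 106, and 106 CPM in the 3-week spleen libraries (0.78 ± 0.09, adjusted p = 9.3e-08). Tap2, a chain of the peptide transporter, was at 66.6, 66.4, and 66.8 CPM in the 24-week graft libraries and 48.9, 34.5, 36.1, 38.1, and 26.97 CPM in the 3-week spleen libraries (0.83 ± 0.13, adjusted p = 7.0e-06). In both genes all graft libraries were above all spleen libraries. B2m, the shared light chain, and H2-D1 were chosen after their values were seen and rose by 0.61 (adjusted p = 5.3e-08) and 0.63 (adjusted p = 4.8e-07). Nlrc5, the activator of class I transcription, went down, at 29.9, 42.3, and 33.02 CPM in the 24-week graft libraries and 56.6, 47.7, 56.7, 53.2, and 65.4 CPM in the 3-week spleen libraries (-0.67 ± 0.13, adjusted p = 1.4e-04). Tap1, also chosen afterwards, was lower with plain totals (-0.39, adjusted p = 0.0034) and not called with TMM factors (-0.19, adjusted p = 0.15).

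The promoters of 3 of these genes are shown because Psmb9, B2m, and H2-T23 all rose, and because the Psmb9 window is also that of Tap1. They are RefSeq windows (GRCm38.p6) of 250 bases before to 50 after the gene start, 5′ to 3′ on the gene's strand, with a match to the interferon-response motif, read here as GAAA followed after any 2 bases by a second GAAA on either strand, in capitals. Matches may overlap other motifs.
H2-T23 (chr17:36032652-36032951, minus strand): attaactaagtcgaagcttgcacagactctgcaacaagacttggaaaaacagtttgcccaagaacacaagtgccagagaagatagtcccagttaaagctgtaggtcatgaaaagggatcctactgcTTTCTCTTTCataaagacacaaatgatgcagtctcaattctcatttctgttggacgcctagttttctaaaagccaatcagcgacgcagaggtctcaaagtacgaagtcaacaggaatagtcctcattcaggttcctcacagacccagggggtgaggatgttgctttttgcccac
B2m (chr2:122147437-122147736, plus strand): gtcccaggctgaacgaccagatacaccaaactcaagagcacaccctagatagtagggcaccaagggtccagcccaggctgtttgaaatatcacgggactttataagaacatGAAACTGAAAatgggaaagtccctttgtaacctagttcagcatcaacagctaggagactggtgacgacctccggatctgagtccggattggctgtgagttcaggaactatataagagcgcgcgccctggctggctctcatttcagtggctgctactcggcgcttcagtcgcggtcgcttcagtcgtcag
Psmb9 (chr17:34187281-34187580, minus strand): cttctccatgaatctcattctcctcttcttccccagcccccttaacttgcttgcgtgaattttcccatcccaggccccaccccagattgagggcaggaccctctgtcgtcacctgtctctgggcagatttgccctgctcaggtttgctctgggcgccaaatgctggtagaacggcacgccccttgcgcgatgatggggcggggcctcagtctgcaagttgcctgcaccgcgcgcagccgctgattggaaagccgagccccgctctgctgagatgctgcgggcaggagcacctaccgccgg
H2-T23 and B2m held 1 match each, and Psmb9 held none. The Psmb9 window shares 275 of its 300 bases with that of Tap1, which lies head to head. Among 13 list genes with a window 3 held the motif, as did 3.44% of 32851 windows. A match is only a description of the letters.

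Interferon-stimulated genes gave no single direction. Of 22 tested, 3 were higher and 5 lower (median -0.02), and 7 were higher and 0 lower with TMM factors, beside 6.65% higher and 30.2% lower of all genes, and 16.3% and 15% with TMM factors. Ifit1 was at 8.07, 7.54, and 21.8 CPM in the 24-week graft libraries and 5.002, 7.56, 9.28, 7.85, and 5.74 CPM in the 3-week spleen libraries, with graft replicate 3 above the rest (0.92 ± 0.30, adjusted p = 0.016). Isg15, a ubiquitin-like protein, was at 22.2, 22.6, and 42.4 CPM in the 24-week graft libraries and 16.5, 10.4, 24.8, 33.2, and 17.8 CPM in the 3-week spleen libraries (0.59 ± 0.23, adjusted p = 0.046). Without graft replicate 3 the changes were 0.16 (adjusted p = 0.74) for Ifit1 and 0.16 (adjusted p = 0.65) for Isg15, and both calls were lost. The Isg15 call was lost on leaving out spleen replicate 1, 2, or 5 as well (changes of 0.52, 0.42, and 0.55). Trim30a (-0.46, adjusted p = 0.0013) and the surface protein Ly6a (-0.56, adjusted p = 0.033) were lower, and neither was called with TMM factors. The Ly6a call was also lost without any one of graft replicate 1 (-0.39, adjusted p = 0.17), graft replicate 3 (-0.45, adjusted p = 0.14), spleen replicate 4 (-0.50, adjusted p = 0.067), spleen replicate 5 (-0.36, adjusted p = 0.16). The thinned share with at least 2 genes of this list was 33.6, 39.2, and 41.7% in the 24-week graft libraries and 43.9, 43.8, 46.6, 50.3, and 50.1% in the 3-week spleen libraries, without overlap (-8.78 percentage points, exact permutation p = 0.0357). The groups overlapped and the call was lost without thinning (-0.355 percentage points, exact permutation p = 0.929), at 500 UMIs (-2.33 percentage points, exact permutation p = 0.107), and with at least 1 gene (-4.49 percentage points, exact permutation p = 0.0714). The share was 48.5% in B cells, which transcribe such genes themselves. The summed level of the list overlapped between the groups, at 1405 to 1864 CPM and 1672 to 1862 CPM.

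More immediate early genes were higher than lower under the graft label. Of 15 tested, 7 were higher and 2 lower (median 0.45 against -0.21), beside 6.65% and 30.2% of all genes. With TMM factors 9 were higher and 1 lower, beside 16.3% and 15%. Junb, an AP-1 subunit, was at 843, 1019.9, and 939 CPM in the 24-week graft libraries and 539, 605, 492, 499, and 496 CPM in the 3-week spleen libraries (0.83 ± 0.08, adjusted p = 8.0e-09), without overlap. Fos was at 410.0, 383, and 175 CPM in the 24-week graft libraries and 117, 187, 139, 114, and 114 CPM in the 3-week spleen libraries (1.25 ± 0.17, adjusted p = 1.4e-06), and Fosb at 247, 183, and 67.1 CPM in the 24-week graft libraries and 69.6, 109, 71.2, 40.5, and 45.3 CPM in the 3-week spleen libraries (1.25 ± 0.25, adjusted p = 2.2e-04). For both, graft replicate 3 lay within or close to the spleen libraries and the groups overlapped. Kidney and spleen were prepared differently, with a digestion in the kidney only, and its part in these values was not tested. Under the 24-week spleen label 13 of 16 immediate early genes were higher and 0 lower than in 3-week spleen. Of all genes in that comparison 31.7% were higher and 25.4% lower. The list summed to 6226 to 7858 CPM under the spleen label, against 3674 to 4409.5 CPM under the graft label. In spleens at other times, which were not digested, it summed to 2748 to 4507 CPM at 1 week and 2807 to 3296 CPM at 3 weeks. In naive spleen it was 1867 to 2212 CPM. The range of 1-week spleen thus spans that of the graft label. The direct test between the labels called 3 of the 16 higher and 11 lower under the graft label. With TMM factors these were 3 and 10. Of all genes in the direct test 14% were higher and 40.2% lower with plain totals. Of 10 heat shock genes tested 2 were higher and 0 lower under the graft label, beside 6.65% and 30.2% of all genes, and with TMM factors 4 and 0, beside 16.3% and 15%. Under the spleen label 10 of 12 were higher and 1 lower, beside 31.7% and 25.4% of all genes. The 2 genes higher under the graft label with plain totals were Dnajb1 (0.40, adjusted p = 0.023) and Hspe1 (0.28, adjusted p = 0.022), whose groups overlapped. The Dnajb1 call was lost without any one of graft replicate 2 (0.40, adjusted p = 0.06), graft replicate 3 (0.16, adjusted p = 0.42), spleen replicate 4 (0.35, adjusted p = 0.053), spleen replicate 5 (0.34, adjusted p = 0.073), and the Hspe1 call without any one of graft replicate 3 (0.16, adjusted p = 0.26), spleen replicate 4 (0.22, adjusted p = 0.066), spleen replicate 5 (0.24, adjusted p = 0.071). Hspa1a and Hspa1b, inducible chaperones named after their values were seen, were at 0.359 to 2.42 CPM and 1.79 to 18.6 CPM under the 24-week graft label and at 435 to 713 CPM and 447 to 592 CPM under the 24-week spleen label.

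T cell receptor genes moved in both directions, in counts that do not set the list apart. Of 17 tested, 2 were higher and 6 lower, beside 6.65% higher and 30.2% lower of all genes, and 5 were higher and 3 lower with TMM factors, beside 16.3% and 15% of all genes. Cd3g, a receptor chain, was at 795, 727, and 704 CPM in the 24-week graft libraries and 431, 389, 403, 395, and 379 CPM in the 3-week spleen libraries (0.89 ± 0.07, adjusted p = 5.1e-10), with every graft library above every spleen library. The kinase Zap70 was at 53.7, 57.4, and 56.2 CPM in the 24-week graft libraries and 73.1, 83.2, 83.03, 100.3, and 83.2 CPM in the 3-week spleen libraries (-0.59 ± 0.11, adjusted p = 7.8e-05), and Ptprc (CD45) at 932, 954, and 882 CPM in the 24-week graft libraries and 1256, 1290.1, 1307, 1216, and 1310.0 CPM in the 3-week spleen libraries (-0.47 ± 0.07, adjusted p = 7.1e-06), both without overlap and in the other direction. The coreceptor Cd6 fell by 0.48 on the log2 scale. Among 14 trafficking receptors 1 was higher and 8 lower (1 and 4 with TMM factors), beside the same shares of all genes. Itga4, the integrin α4 chain, was at 145, 162, and 159.6 CPM in the 24-week graft libraries and 235, 220.2, 219, 207, and 239.9 CPM in the 3-week spleen libraries (-0.53 ± 0.08, adjusted p = 1.6e-05). The inflammatory chemokine receptor Ccr2 (2.72 ± 1.24 CPM against 8.16 ± 4.27 CPM; -1.59, adjusted p = 0.0017) was lower, without overlap. With all cells of the matrices Ccr2 was at 0.045 (adjusted p = 0.85), so its call is lost without the rule for cells. P2ry10, a receptor for lysophospholipids, was lower with plain totals (-0.54, adjusted p = 0.0023) and not called with TMM factors.

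GIMAP genes, GTPases of lymphocyte survival that lie in 1 cluster, were 0 higher and 4 lower of 8, beside 6.65% and 30.2% of all genes, and 2 higher and 1 lower with TMM factors, beside 16.3% and 15%. Gimap6 was at 374, 368, and 357 CPM in the 24-week graft libraries and 436, 558, 558, 532, and 510.1 CPM in the 3-week spleen libraries (-0.50 ± 0.08, adjusted p = 3.1e-05) and was the 1 that fell under both scalings. Of 18 ribosome biogenesis and Myc target genes 4 were higher and 3 lower, and 8 and 2 with TMM factors, beside the same shares of all genes. Odc1, the first enzyme of polyamine synthesis, fell by 0.61, and the nucleolar protein gene Gnl3 by 0.46, while Myc (0.42, adjusted p = 0.034) and Nop16 (0.46, adjusted p = 0.047) were higher. The Myc call was lost without any one of graft replicate 1 (0.44, adjusted p = 0.053), graft replicate 3 (0.22, adjusted p = 0.37), spleen replicate 2 (0.39, adjusted p = 0.065), spleen replicate 3 (0.34, adjusted p = 0.10), and the Nop16 call without any one of graft replicate 2 (0.50, adjusted p = 0.064), graft replicate 3 (0.27, adjusted p = 0.35), spleen replicate 3 (0.44, adjusted p = 0.08), spleen replicate 4 (0.38, adjusted p = 0.11), spleen replicate 5 (0.47, adjusted p = 0.064). Of 9 cell cycle genes tested 1 was higher and 3 lower, and 2 and 0 with TMM factors, which does not set them apart from all genes either. The tubulin gene Tuba1b was higher at 121, 121, and 143 CPM in the 24-week graft libraries and 98.5, 111, 94.4, 82.2, and 74.02 CPM in the 3-week spleen libraries, without overlap (0.48 ± 0.10, adjusted p = 6.7e-04). Top2a, a topoisomerase of dividing cells, was at 4.03 ± 1.77 CPM and 7.76 ± 1.39 CPM, and its call (-0.92, adjusted p = 0.017) was lost with TMM factors and without either of graft replicate 1 (-0.66, adjusted p = 0.11), spleen replicate 1 (-0.79, adjusted p = 0.05). The calls of the replication helicase Mcm6 (-0.39) and of the chromatin protein Hmgb2 (-0.31) were lost with TMM factors as well.

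If the 24-week tissue labels were exchanged, the comparison above would be one of spleen at 24 weeks with spleen at 3 weeks, and the graft would be the libraries labelled 24-week spleen. These were compared with the same 3-week spleen libraries, so both comparisons share their controls and are given side by side. The 24-week spleen label had 3999 kept cells of 4538 in 3 libraries, and its kept share was 84.0% to 90.2%, against 41.3% to 45.2% under the graft label. Of 9349 genes 5344 were called (57.2%), 2966 higher (31.7%) and 2378 lower (25.4%), and a change of more than 1 on the log2 scale was found for 1964 (21.01%), against 339 (3.82%) under the graft label. The split was 1860 higher and 3903 lower when mitochondrial, ribosomal protein, and Malat1 counts were left out. The direct test between the 24-week labels called 5209 of 9623 genes (54.1%), 1344 higher (14%) and 3865 lower (40.2%) under the graft label, 2330 higher and 2528 lower with TMM factors, and 2836 higher and 2038 lower when mitochondrial, ribosomal protein, and Malat1 counts were left out. The median log2 fold change of all genes in this direct test was -0.26, and in the comparison of the spleen label with 3-week spleen 0.05.

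Naive genes were lower under the 24-week spleen label. Of the 20 genes 1 was higher and 19 lower under the spleen label (median -3.18), beside 31.7% and 25.4% of all genes. Lef1 was at 11.9, 15.2, and 17.8 CPM and fell by 4.89 on the log2 scale (edgeR adjusted p = 3.4e-21), where it rose by 0.22 under the graft label. Klf2 was at 154, 156, and 131 CPM and fell by 2.11 (adjusted p = 7.4e-14), where it rose by 0.50. The direct test between labels gave 5.11 ± 0.13 for Lef1 (adjusted p = 8.1e-16) and 2.61 ± 0.09 for Klf2 (adjusted p = 1.0e-13). Tcf7 (-2.96), Ccr7 (-3.71), Il7r (-1.37), and Klf3 (-3.77) fell under both labels with plain totals, by more under the spleen label. The direct tests of these 4 gave 2.59, 3.39, 0.81, and 3.25, with adjusted p of 1.0e-12, 9.0e-11, 1.2e-06, and 1.2e-11. The thinned naive share was 44.8% under the spleen label.

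Most memory, cytotoxic, checkpoint, and residency genes tested were higher under the spleen label, beside 31.7% higher and 25.4% lower of all genes. The memory list was mixed, as its share of genes called lower was not below that of all genes. Higher and lower genes numbered 14 and 6 of 20 memory genes (median 1.28), 12 and 0 of 12 cytotoxic genes tested (4.62), 13 and 0 of 13 checkpoint genes (4.78), 11 and 1 of 12 residency genes (3.91), and 7 and 0 of the regulatory-like genes tested. Gzmb was at 562, 537, and 619.6 CPM, Ifng at 301, 278, and 274 CPM, and Pdcd1 at 501, 425, and 474 CPM. In each of these 3 genes every such library was above all 24-week graft and 3-week spleen libraries. The share of all genes that stand apart in this way was not counted for the spleen label. Thinned shares under the spleen label were 99.3% for memory, 58.5% for cytotoxic, 51.5% for checkpoint, and 75.5% for residency genes, and 41.2% for interferon-stimulated genes.

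Summed markers of NK and γδ T cells, myeloid cells, and CD4 T cells were also higher under the spleen label. Of all genes 31.7% were called higher and 25.4% lower in this comparison. The 7 NK and γδ T cell genes summed to 239.8 to 259 CPM, against 29.6 to 40.5 CPM in 3-week spleen, with 2 higher and 1 lower of 4 tested. Most of that sum was the γ chain segment Trgv2 (mean 222 CPM), while Trdc, the δ chain constant gene, fell from 15.3 to 5.62 CPM (adjusted p = 0.001) and the NK receptor gene Ncr1 was at 0.294 CPM. The 12 myeloid genes summed to 264 to 319.5 CPM against 73.9 to 150.4 CPM, with 4 higher and 2 lower of 6 tested, and Lyz2 at 0 by the rule. The 14 B cell genes summed to 573 to 1965 CPM against 478 to 876 CPM, with overlap, and Cd79a was at 0 by the rule. Of the 13 tested 5 were higher and 3 lower (median -0.03), close to the shares of all genes. The 5 CD4 T cell genes summed to 25.4 to 38.7 CPM against 5.77 to 13.8 CPM, with both genes tested higher, and Cd4 at 0 by the rule. Ribosomal protein genes took 29.5% to 31.6% of UMIs under the spleen label, against 40.7% to 42.7% in 3-week spleen. The part of these differences in the changes under the spleen label was not tested.

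Some genes turned direction with the label. Il2rb, lower under the graft label, was at 370.1, 333, and 395 CPM and rose by 0.95 (adjusted p = 2.2e-09). Runx3 rose by 0.29 (adjusted p = 0.0063), Cd44 by 0.93, Klrc2 by 1.54, Cblb by 0.46, Itga4 by 0.94, Rgs2 by 3.79, and Ikzf2 by 0.94. Tox (2.14) and Ccl5 (3.08) rose as well, where their falls under the graft label depended on the scaling. The direct tests between labels gave -2.04 for Il2rb, -1.43 for Runx3, and -2.20 for Cd44, with adjusted p of 2.7e-11, 6.0e-09, and 3.5e-10. Bcl2, at 575, 497, and 605 CPM, did not pass the test under the spleen label (0.14 ± 0.09, adjusted p = 0.19), and differed between labels by -1.27 (adjusted p = 6.6e-09). Tuba1b and Myc, higher under the graft label, fell by 0.53 and 0.65.

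Other changes kept their direction whichever 24-week label was used. H2-T23 rose by 1.61 and 2.07 under the graft and spleen labels, Psmb9 by 0.78 and 1.01, and Tap2 by 0.83 and 0.84. The direct test gave -0.01 ± 0.10 (adjusted p = 0.96) for Tap2, -0.23 ± 0.09 (adjusted p = 0.045) for Psmb9, and -0.46 ± 0.10 (adjusted p = 0.0012) for H2-T23. Wdr89 rose by 2.13 and 1.84, Hnrnpa0 by 0.94 and 0.82, Junb by 0.83 and 1.55, and Cd3g by 0.89 and 2.64. Gm26917 fell by 1.95 and 2.13, Macf1 by 1.17 and 1.40, Ccdc88c by 1.14 and 1.14, Gimap6 by 0.50 and 0.48, and Il18rap by 1.21 and 1.03 on the log2 scale. All passed the test under both labels. Both comparisons use the same 5 spleen libraries, and a deviation of those libraries would enter both in the same direction. Rgcc, higher under the graft label, did not pass the test under the spleen label (-0.03 ± 0.14, adjusted p = 0.86), and differed between labels by 1.06 (adjusted p = 6.6e-07).

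**Figure D5:**
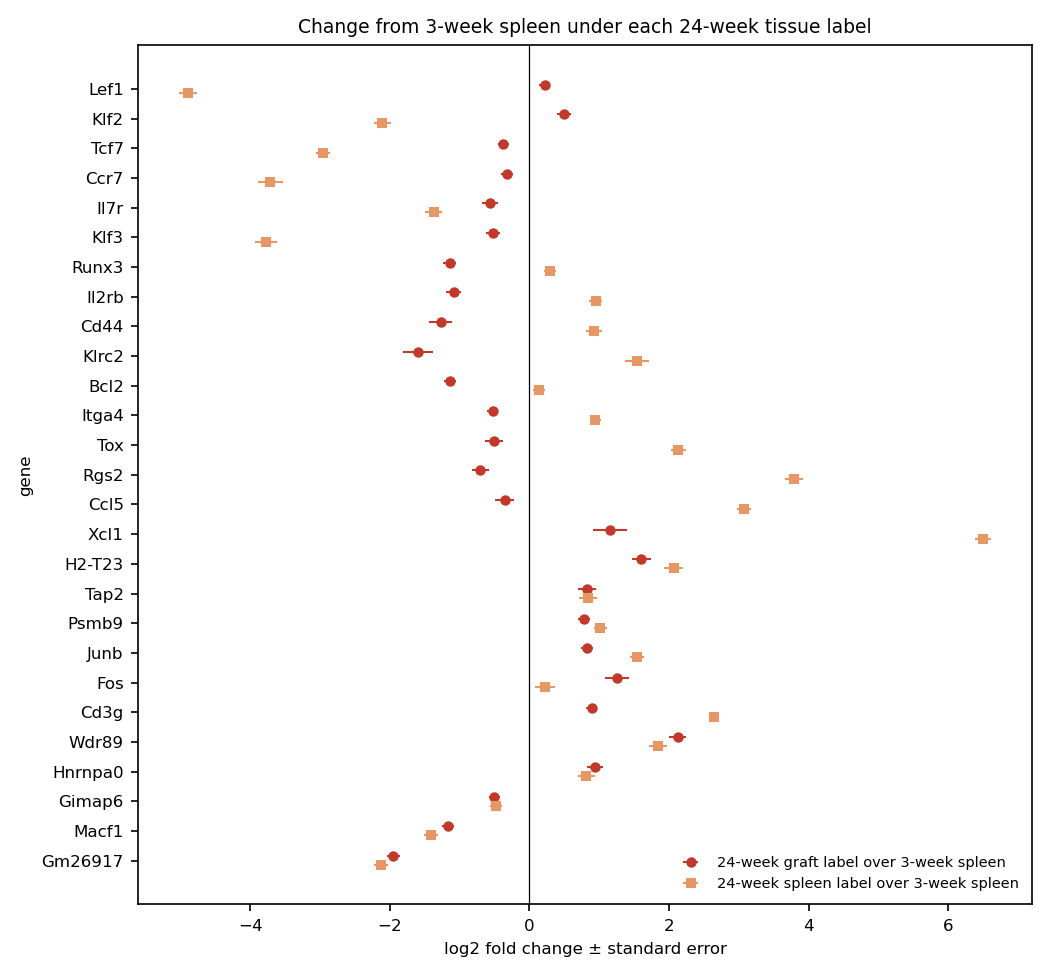
Log2 fold change with standard error of 27 named genes against 3-week spleen, for the 24-week graft label (circles) and the 24-week spleen label (squares). Il2rb is at -1.09 and 0.95, on opposite sides of 0, and H2-T23 at 1.61 and 2.07, on the same side.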

How the data were processed

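Droplet scRNA-seq of sorted CD45+ cells was analysed. The authors mapped reads with Cell Ranger (mm10 in the submitters' processing notes; the version and the limits of the cell filters are not given in the sources used here), called CD8+ T cells, and deposited raw UMI counts per cell for each tissue and time, with a library tag on each barcode. No doublet caller was run here. UMI counts of kept cells were summed for each tag and divided by its plain total to give CPM. The labels do not say how tags were split, so p-values measure the spread between tags, taken as mice.

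Genes in both matrices were filtered by filterByExpr and tested with edgeR 4.0.16 (R 4.3.3), by glmQLFit and glmQLFTest with Benjamini-Hochberg adjustment at 0.05, on the 2 groups compared. Log2 fold changes and their standard errors are from these fits. DESeq2 1.42.0, TMM factors, and other cell, depth, and gene filters served as alternatives, of which cells without a Ccl5 UMI and the block by tag number were added after seeing the data. Shares of cells used thinning to 1000 UMIs per cell with a fixed seed, leaving out cells with fewer (4 in 3-week spleen, and 9, 32, and 28 in the libraries labelled 24-week spleen), and two-sided exact permutation tests over libraries (scipy 1.17.1; 56 splits, smallest p 0.0357). The background of shares came from B cells of the naive spleen CD45+ matrix, thinned to 1000 UMIs as well. They were taken only without a UMI of Cd3d, Cd3e, Cd3g, Cd8a, Cd8b1, Cd4, or Lyz2. They therefore do not give the background of the transplanted tissues. Intervals of single counts would cover counting error only and are not given. The procedure was also run on simulated counts with as many rises as falls. These counts had no shift of all genes and none by intron length. The simulation therefore cannot test the calls that depend on the scaling.

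Named genes were up to 4 genes per list with the largest change among those called, the genes of these lists named in the study's results, and the 10 largest rises and falls among genes called, with at least 100 CPM in the higher group and groups that do not overlap, leaving out T cell receptor segments, immunoglobulin genes, ribosomal proteins, and mitochondrial genes. The members and lists were chosen with earlier results of these data known, and some list genes come from the study of these cells. Some genes that the naming rule or the lists hold are not reported here. Coordinates and introns are from GENCODE on GRCm38, promoters from RefSeq. Matrices other than these 2 and the 24-week spleen are shown as levels only.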

Additional observations from a re-analysis of the deposited data

Results flagged for a closer look

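Of 98 sets of 5 spleen libraries examined, 2 held a library whose gap to its nearest neighbour exceeded the critical share of 0.71 of the range, and chance alone gives about 1 in 20. The rule kept 46.3% of the cells of 3-week spleen replicate 1, above the 37.5% to 38.4% of the other 4. For Gnl3, a nucleolar protein gene, 3-week spleen replicate 5 was at 166 CPM, above the other 4 spleen libraries.

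The changes from 3-week spleen differed between the 24-week labels. The direct test of the 24-week graft label against the 24-week spleen label, which is the test of that difference since the 3-week libraries cancel, called 5209 of 9623 genes.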

How the results depend on the processing

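The 24-week graft label against 3-week spleen gave 3264 calls. The number of calls stayed within 1.5 times of that without a filter on low counts, with all cells, and with 2 CD8 UMIs. It also did with libraries of equal totals and without mitochondrial, ribosomal protein, and Malat1 counts. In that order 3067, 3043, 2997, 2526, and 2664 of the 3264 were called again in the same direction. With each library left out in turn, 2603 to 3187 genes were called. DESeq2 gave 1928 calls (1051 higher, 877 lower), thinning each cell to 1000 UMIs 1214 (226 and 988), and taking out the intron length shift 2128 (1035 and 1093). TMM factors gave 1442 higher and 1333 lower. Thinning gave 2848 calls for the 24-week spleen label against 3-week spleen and 2695 between the 24-week labels. Without cells with a Ccl5 UMI these were 1671 and 1505.

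The naive share difference of -2.35 points was -0.222 without thinning and -0.543 with at least 1 gene (both lost the call, exact permutation p = 0.214 and 0.143), -5.32 with at least 3 genes, -6.96 at 500 UMIs, and -2.95 to -1.53 when each library was left out. The memory share difference of -11.0 became 0.466 without thinning, against the main direction, -4.62 with at least 1 gene, and -7.89 at 500 UMIs, and was -14.04 to -8.59 with each library left out. The residency difference of -3.00 passed the test with at least 1 gene (-11.2, exact permutation p = 0.0357), and did not at 500 UMIs (-1.41, p = 0.143), with at least 3 genes (-0.468, p = 0.214), or without thinning (-10.3, p = 0.0714). The interferon share difference moved from -8.78 to -0.355 without thinning, -2.33 at 500 UMIs, and -4.49 with at least 1 gene (all 3 lost the call, exact permutation p = 0.929, 0.107, and 0.0714), and was -10.5 to -6.50 with each library left out. The kept share difference of 3.06 points became -0.468 with cells thinned before the rule, and was 1.77 to 4.74 with each library left out, the last without spleen replicate 1 (no overlap, exact permutation p = 0.0571). With a library left out the smallest p these share tests can give is 0.0952 or 0.0571. The fall of Ccr2 became a change of 0.045 with all cells of the matrices.

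Of 81 named genes tested, 40 kept their direction and side of the threshold under every alternative that tested them. The other 41 did not under at least 1. Genes with too few counts in an alternative were not tested there. With thinning 55 of the 81 kept both and 13 lost a call, and the rest were not tested. Calls were lost by 22 genes with DESeq2, 19 with the intron shift taken out, 16 with TMM factors, and 13 each with thinning and without graft replicate 3. A replicate block by tag number gave 5268 calls between the 24-week labels, against 5209. No paired analysis was possible for 24-week graft against 3-week spleen because tag numbers of different weeks mark different mice. Without the filter on low counts 15065 genes were tested in place of 8866, and of the 13 checkpoint genes only Tox was called.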
